A study of Mus musculus with 8 samples.

Results

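The clustered replication-dependent histone genes were described in embryonic mouse retina that differed in the dose of Ezh2. They were taken as each row of the deposited gene table whose symbol starts with Hist1h, Hist2h, Hist3h or Hist4h. This gave 61 of 16096 genes, of which 59 had enough reads to be tested. By histone type there were 5 H1, 15 H2a, 16 H2b, 12 H3 and 13 H4 genes. The Hist1 cluster on chromosome 13 holds 49 of them, the Hist2 cluster on chromosome 3 holds 8, the Hist3 cluster on chromosome 11 holds 3, and Hist4h4 stands alone on chromosome 6.

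The tissue was the dissected peripheral retina of C57BL/6 embryos at embryonic day 16.5. A total of 4 libraries carried the Pax6alpha-Cre transgene together with a floxed and a null allele of Ezh2 (genotype Pax6alpha-Cre:Ezh2fl/null, labelled cKO here). The other 4 libraries, the controls, carried the transgene, the floxed allele and a wild-type allele (Pax6alpha-Cre:Ezh2fl/+). Both groups thus carry Cre and the floxed allele, and the Pax6alpha element drives Cre in the peripheral retina, so cells in which Cre is not active keep a working floxed allele. Ezh2 encodes the catalytic subunit of Polycomb repressive complex PRC2, which methylates a lysine in the tail of histone H3. The labels do not say which animals or litters the replicates came from, so p-values measure only the spread between these samples, which may be technical.

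Chromatin is built from nucleosomes, in which DNA is wound around the core histones H2A, H2B, H3 and H4, while the linker histone H1 binds where the DNA enters and leaves. A dividing cell must make new histones as it copies its DNA, and the clustered genes supply them in S phase under the coactivator NPAT. Their mRNAs mostly lack introns and end in a short conserved stem-loop bound by SLBP (stem-loop binding protein) in place of a poly(A) tail. A population of dividing retinal progenitors therefore carries these mRNAs at high level, whereas neurons that have left the cell cycle rely more on replacement histones made from polyadenylated mRNAs.

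The stem-loops are shown first because they define the class of mRNA and because the deposited counts depend on how such transcripts are annotated. A search of GENCODE M21 transcripts for 16 bases that begin with GG, end with CC, form 6 exact base pairs and hold TT and A at the conserved inner places found them in 41 of the 61 genes. The same search matched 177 of 58725 other protein-coding transcripts, or 0.301%. The lines below give the 16 bases of the stem-loop in capitals with 5 bases on each side, read 5′ to 3′ on the gene's strand from the transcripts of the mm10 assembly. The first 4 genes passed the test between the groups and the other 4 show abundant genes or variant loops.
Hist1h2bg: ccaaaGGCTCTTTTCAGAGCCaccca
Hist1h2ae: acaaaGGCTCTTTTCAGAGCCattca
Hist1h2bp: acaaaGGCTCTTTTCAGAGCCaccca
Hist1h2bb: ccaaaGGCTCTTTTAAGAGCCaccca
Hist1h1e: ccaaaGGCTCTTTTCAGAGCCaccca
Hist1h4d: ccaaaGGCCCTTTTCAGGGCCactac
Hist1h4b: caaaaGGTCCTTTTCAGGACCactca
Hist1h3g: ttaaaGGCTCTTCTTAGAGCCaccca

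These stem-loops lie on chromosome 13 of mm10. That of Hist1h2bg is at chr13:23571843-23571858 on the plus strand, that of Hist1h2ae at chr13:23570668-23570683 on the minus strand, and that of Hist1h2bb at chr13:23747203-23747218 on the plus strand. The form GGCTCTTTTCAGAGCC was present in 22 genes, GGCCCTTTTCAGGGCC in 7 and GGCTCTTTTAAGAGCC in 5, and the other 7 genes had 5 further forms. The gene model ended within 100 bases of the stem-loop in 19 genes and ran more than 100 bases past it in 22. In the other 20 genes the model held no match, among them Hist2h3b, which passed the test between the groups.

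The promoters of the H2a and H2b genes are often shared, since 11 pairs start head to head with at most 500 bases between their starts. The promoter of Hist1h2bg is printed because Hist1h2ae begins 176 bases away on the opposite strand and both passed the test between the groups. The promoters of Hist2h3b, which also passed, and of Hist1h1e, the most abundant H1 gene, are given for comparison. Each runs from 250 bases before to 50 after the start in RefSeq (GRCm38.p6), with matches to 3 motifs on either strand in capitals. The motifs are the TATA box TATAAA, the proximal element CCAAT, and the octamer ATTTGCAT bound by POU-domain factors. No matches of different motifs overlapped in the histone promoters.
Hist1h2bg, chr13:23571150-23571449, plus strand: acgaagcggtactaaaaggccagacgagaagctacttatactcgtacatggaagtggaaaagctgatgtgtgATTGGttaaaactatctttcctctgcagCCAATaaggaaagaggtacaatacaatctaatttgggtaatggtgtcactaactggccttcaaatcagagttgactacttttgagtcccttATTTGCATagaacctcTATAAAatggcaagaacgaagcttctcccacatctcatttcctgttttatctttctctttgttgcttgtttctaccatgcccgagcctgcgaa
Hist2h3b, chr3:96268404-96268703, plus strand: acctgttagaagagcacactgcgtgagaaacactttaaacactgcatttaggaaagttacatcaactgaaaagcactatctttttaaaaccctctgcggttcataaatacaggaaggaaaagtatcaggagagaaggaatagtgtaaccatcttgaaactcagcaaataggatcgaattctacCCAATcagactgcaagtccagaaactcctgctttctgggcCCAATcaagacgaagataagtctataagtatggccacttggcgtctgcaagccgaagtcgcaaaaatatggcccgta
Hist1h1e, chr13:23622509-23622808, minus strand: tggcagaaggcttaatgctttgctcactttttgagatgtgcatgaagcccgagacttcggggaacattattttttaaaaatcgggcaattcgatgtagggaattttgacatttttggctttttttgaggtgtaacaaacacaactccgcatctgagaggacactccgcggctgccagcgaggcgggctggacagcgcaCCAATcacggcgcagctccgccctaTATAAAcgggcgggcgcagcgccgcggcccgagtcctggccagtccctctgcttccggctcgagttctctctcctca

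RefSeq held a promoter for 53 of the 61 genes. CCAAT was present in 44 of the 53 (83.0%) against 37.4% of 32851 RefSeq promoters of the same length. It was found in each H1, H2a, H2b and H3 promoter and in 3 of 12 H4 promoters. The octamer was found in 6 of 13 H2a and 5 of 13 H2b promoters and in none of the others, against 1.74% of RefSeq promoters. The TATA box letters were present in 32 of 53 (60.4%) against 13.6% of RefSeq promoters. The windows of head-to-head pairs overlap, so these counts are not independent.

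Total counts ran from 13994825 to 18391647 per library, and the histone genes took 1.245% to 1.537% of them. Per the whole-gene count, Ezh2 stood at 276, 251, 255 and 220 CPM in the cKO libraries, against 235, 230, 197 and 207 CPM in the controls; values are listed here and below in the order of replicates 1 to 4. CPM is the count scaled to the TMM-normalized library size. The log2 difference was 0.21 (SE 0.07, edgeR adjusted p = 0.0701). A whole-gene count does not show whether the floxed part was deleted, so it does not check the labels. All 8 retinal markers were found, with summed levels of 4698 to 5169 CPM in cKO and 5897 to 6196 in control libraries. Their median log2 difference was -0.08, and 2 of 8 were called lower, against 3.46% of all genes tested. Most of the difference between the sums came from Ccnd1, at 3217 CPM in the cKO and 4102 in the controls. Lens crystallins summed to 13.7 CPM in cKO replicate 2 and 18.5 in control replicate 1 but to 4.65 or less elsewhere. By Xist and Y-linked genes, cKO replicates 2 and 3 came from female embryos and the other 6 libraries from males. Within groups the libraries differed by a chi-square of 4.79 to 25.1 per degree of freedom, so none was taken for a repeat of another. The controls formed 2 sets. Control replicates 1 and 3 differed by 4.79 and control replicates 2 and 4 by 9.63, against 18.2 to 25.1 for the other control pairs. Control replicates 1 and 3 also had more mitochondrial rRNA than control replicates 2 and 4. What set them apart was not tested.

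The 5 H1 genes gave 31.7% of all counts in clustered histone genes, H2b genes 22.8%, H4 genes 21.2%, H2a genes 12.2% and H3 genes 12.2%. A few genes carried each type. The 3 genes with the most counts held 68.0% of the H1 counts, 61.8% of H2a, 56.4% of H2b, 63.2% of H3 and 54.9% of H4. These shares are of counts and are not scaled to length, so genes with longer transcripts weigh more in them. Single genes were ranked per length, with the authors' FPKM values in the controls (mean ± SD, n = 4). Hist1h4d was highest at 1966 ± 181 FPKM, followed by Hist1h1e at 1647 ± 133. Hist1h2bb at 1280 ± 143, Hist1h1a at 1172 ± 105 and Hist1h4h at 1165 ± 84.5 FPKM came next, with ranges of mean ± SD that overlapped. The highest H2a gene was Hist1h2ak at 817 ± 80.4 FPKM, and the highest H3 gene was Hist1h3b at 541 ± 37.6 FPKM, close to Hist1h3e at 521 ± 51.2.

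**Figure D1:**
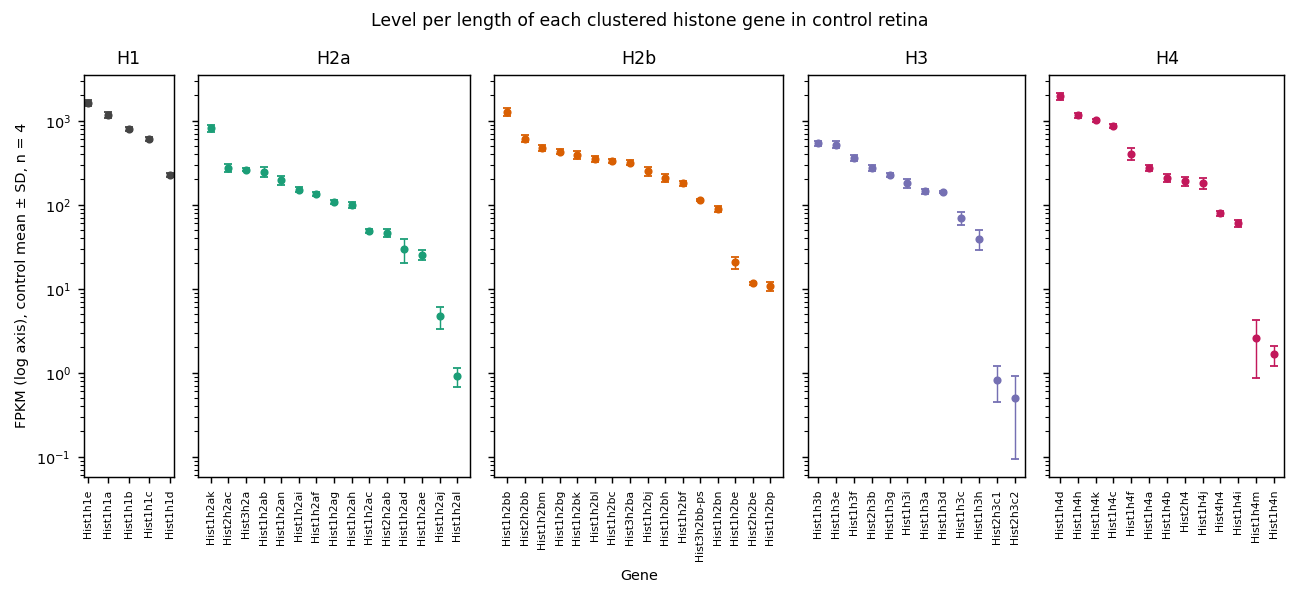
Level per length (FPKM, log axis) of each clustered histone gene in the 4 control libraries, by type and in falling order; points are means and bars SD. Hist1h4d is highest at 1966 FPKM, and the lowest genes of H2a, H3 and H4 lie at 0.902, 0.503 and 1.65 FPKM.

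At the other end, Hist1h2al was at 0.902 ± 0.234 FPKM, Hist2h3c1 at 0.821 ± 0.367 and Hist2h3c2 at 0.503 ± 0.409. Hist1h2al and Hist2h3c2 had too few reads for the test. Hist1h2al is annotated as a processed pseudogene, as is Hist3h2bb-ps, and Hist1h2aj as an unprocessed one. FPKM also depends on the model: the length implied for Hist1h1d was 3824 bases against 748 for Hist1h1a, which lowers its FPKM of 228 although their levels were 878 and 882 CPM in the controls. The row named Hist2h2bb, at 609 ± 58.4 FPKM, carries an identifier that GENCODE M21 gives to a lincRNA model spanning chr3:96269721-96279001. Its reads are therefore not certain to come from the H2b coding sequence.

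Most clustered histone genes had a slightly lower mean in the cKO group, few of them passed the test, and 2 of the 4 cKO libraries, replicates 2 and 3, had a median deviation within the range of the controls. The edgeR log2 fold change was below 0 for 58 of 59 tested genes, against 52.4% of all 15014 genes tested. The median was -0.17 over the histone genes and -0.01 over all genes. A total of 5 genes passed the test as lower (adjusted p under 0.05 in the quasi-likelihood test of edgeR), and 0 as higher. Of all genes tested, 3.46% were called lower and 8.35% higher. At an unadjusted p under 0.05, 30 histone genes were lower and 0 higher, against 10.2% of all genes lower. The authors' log2 ratio, from the authors' deposited table, was below 0 for 60 of the 61. In bulk tissue, fewer cells that make histone mRNA and less of it per cell cannot be told apart.

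**Figure D2:**
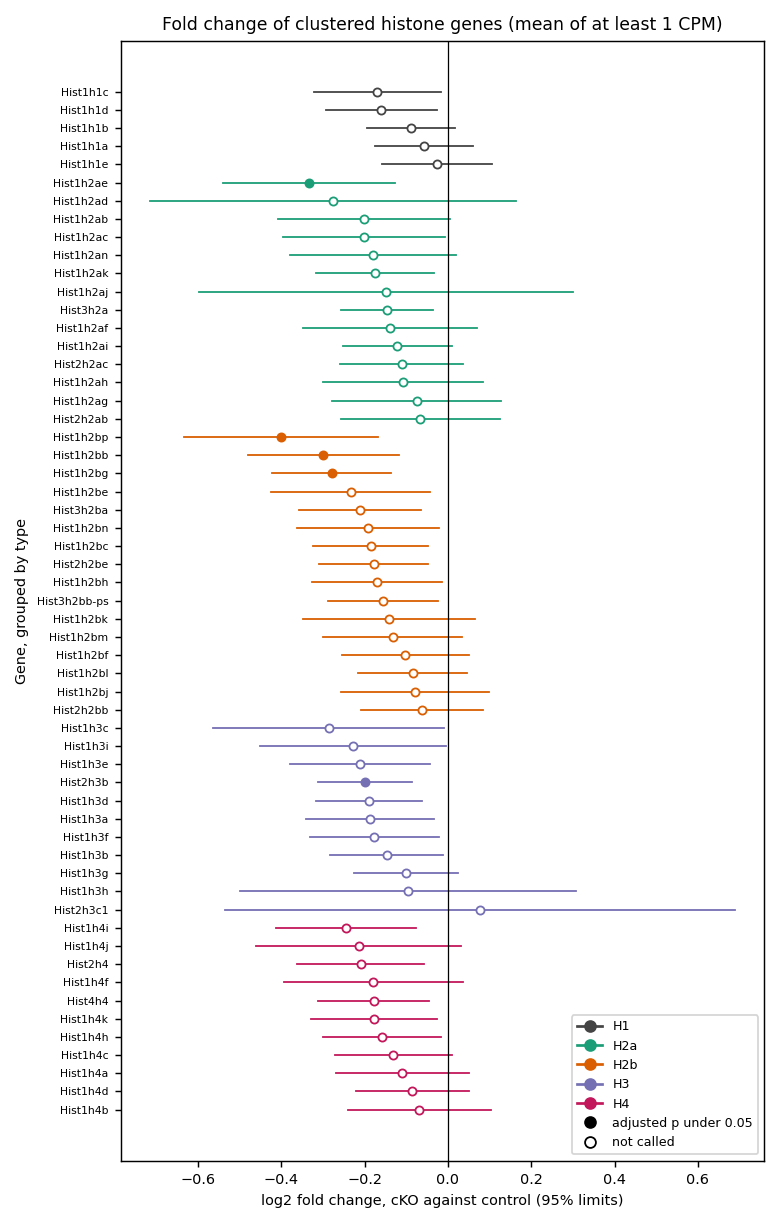
Log2 fold change, cKO against control, with 95% limits for the 57 genes averaging 1 CPM or more, grouped and coloured by histone type; filled points passed the edgeR test. All points but Hist2h3c1 lie left of 0, and the 5 filled points lie between -0.20 and -0.40.

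The number of calls depended on which libraries entered. Without cKO replicate 1 or cKO replicate 4 it was 2, where 2.83% and 4.41% of all genes were called lower. Without cKO replicate 2 it was 8 (2.54% of all genes) and without cKO replicate 3 it was 11 (2.42%). Without control replicate 1 it was 7 (2.66% of all genes). Without control replicates 2, 3 or 4 it was 2, 3 and 1, against 2.33%, 2.17% and 2.39% of all genes. Without the 2 libraries with lens crystallin counts it was 16, where 2.14% of all genes were called lower. In the 6 male libraries alone it was 25, where 1.67% of all genes were called lower, and with sex as a covariate it was 24, where the share was 1.64%. Under total-count scaling it was 3, where 1.82% of all genes were called lower. With control replicates 1 and 3, which had more mitochondrial rRNA, as the only controls edgeR called 0 (1.58% of all genes), with 14 lower at an unadjusted p under 0.05.

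Of the 5 genes called, Hist1h2bg and Hist1h2ae share the promoter region printed above. Hist1h2bg, which encodes H2B, was at 190, 218, 250 and 225 CPM in the cKO libraries, against 255, 275, 269 and 273 CPM in the controls. The highest cKO library was below the lowest control. The log2 difference was -0.28 (SE 0.07, edgeR adjusted p = 0.0123), and it was called in 18 of 19 alternative settings (another tool, scaling, filter, covariate or set of libraries). Hist1h2ae, which encodes H2A, was at 13.2, 14.8, 15.8 and 13.7 CPM against 14.8, 17.9, 20.1 and 19.3. Control replicate 1 lay within the cKO range. The log2 difference was -0.33 (SE 0.10, edgeR adjusted p = 0.0354), called in 11 of 19 alternatives.

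Hist2h3b, an H3 gene of the Hist2 cluster and the only one of the 5 outside chromosome 13, was at 106, 117, 124 and 122 CPM in the cKO and at 131, 136, 129 and 142 in the controls. The groups did not overlap. Its log2 difference was -0.20 (SE 0.05, edgeR adjusted p = 0.0237), called in 13 of 19 alternatives. In Hist2h3b 79.7% of 50-base windows also occur in another histone transcript, so its reads may be divided among near-identical copies. Over all 61 genes, 26 had more than 50% of their windows shared. A total of 21 overlap another annotated gene, Hist2h3b and Hist1h2ae among them, and without strand the reads of the 2 genes cannot be told apart.

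Hist1h2bb, the most abundant H2b gene per length, was at 473, 518, 550 and 430 CPM in the cKO and at 539, 567, 694 and 623 in the controls. Control replicate 1 lay just below the highest cKO library. The log2 difference was -0.30 (SE 0.08, edgeR adjusted p = 0.0324), called in 13 of 19 alternatives. Hist1h2bp, a weakly expressed H2b gene, was at 5.75, 6.13, 6.17 and 5.38 CPM against 6.59, 8.19, 8.56 and 7.52. It had no overlap and the largest log2 difference of the 5, at -0.40 (SE 0.11, edgeR adjusted p = 0.0265), but was called in 9 of 19 alternatives only.

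A complete separation of the groups was seen for 8 genes, with the cKO lower in each: Hist1h1d, Hist1h2bg, Hist1h2bp, Hist1h3d, Hist1h4i, Hist2h3b, Hist3h2a and Hist3h2bb-ps. That is 8 of 59, where 6.21% of all genes were separated in this direction. Hist3h2a, the H2a gene with the most counts, was at 476, 482, 498 and 435 CPM against 524, 517, 526 and 524. Its control libraries spanned less than 10 CPM. The log2 difference was -0.15 (SE 0.05, edgeR adjusted p = 0.0857).

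Summed over all 61 genes, the level was 12300, 13850, 14230 and 12730 CPM in the cKO libraries, against 13870, 14580, 15150 and 14840 CPM in the controls. The means were 13280 ± 908 and 14610 ± 547 (SD, n = 4), the cKO mean being 9.11% lower. Only cKO replicate 3 exceeded the lowest control. Summed levels are descriptions of the list and carry no test.

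By type, the difference between the mean sums was smallest for the linker histone H1. H1 sums were 4015, 4368, 4499 and 4185 CPM in the cKO and 4402, 4627, 4672 and 4529 in the controls, a mean 6.38% lower. It was largest for H3, with sums of 1405, 1723, 1717 and 1521 CPM against 1673, 1764, 1941 and 1836, a mean 11.8% lower. In both types the upper cKO libraries overlapped the lowest control.

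The sums of the other core histones lay between these. H2a sums were 1564, 1670, 1765 and 1431 CPM against 1725, 1814, 1805 and 1812, a mean 10.2% lower. H2b sums were 2815, 3211, 3235 and 2761 CPM against 3054, 3345, 3607 and 3420, a mean 10.5% lower. H4 sums were 2505, 2882, 3011 and 2836 CPM against 3013, 3031, 3122 and 3246, a mean 9.495% lower. H4 was the only type whose sums did not overlap, by a margin of 2 CPM. The differences between types were not tested.

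**Figure D3:**
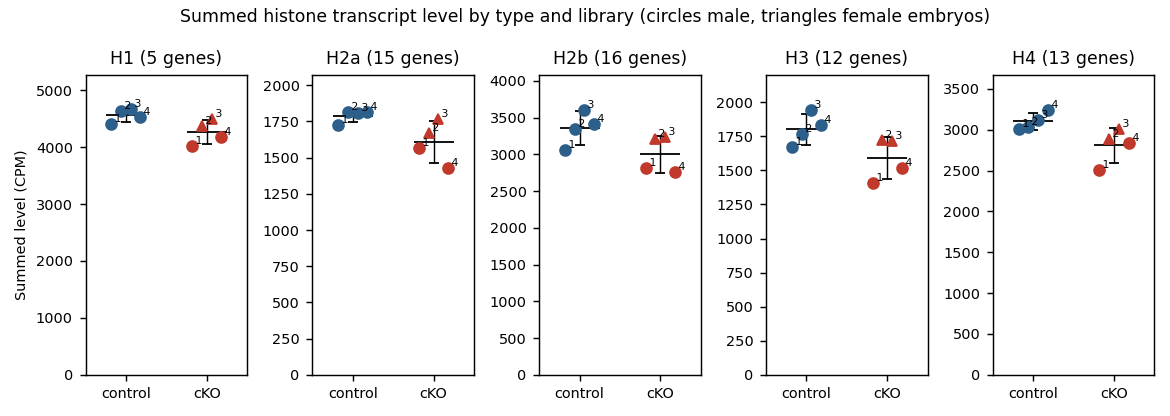
Summed level of each histone type (CPM, axes from 0) in each library, control in blue and cKO in red, circles for male and triangles for female embryos; bars are mean ± SD of 4 and numbers are replicates. In each type cKO replicate 1 or 4 is lowest, and the triangles lie near the controls.

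Within H1, the somatic linker subtypes, edgeR called 0 of 5 genes. At an unadjusted edgeR p under 0.05, 2 were lower, against 10.2% of all genes. DESeq2 called 1 lower, where it called 3.67% of all genes. Hist1h1e was at 1219 ± 80.3 CPM in the cKO and 1241 ± 49.4 in the controls, a log2 difference of -0.03 (95% limits -0.16 to 0.11). Hist1h1a differed by -0.06 (-0.17 to 0.06) and Hist1h1c by -0.17 (-0.32 to -0.02, edgeR adjusted p = 0.161) on the log2 scale. Hist1h1c had the largest H1 difference and Hist1h1e the smallest, and the median of the type was -0.09.

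Within H2a, 1 of 14 tested genes was called lower, where 3.46% of all genes were, and the median log2 difference was -0.15. Apart from Hist3h2a, the most counted genes were Hist1h2ak, at 374 ± 36.8 CPM in the cKO and 422 ± 23.6 in the controls (log2 -0.18), and Hist1h2ai, at 146 ± 14.3 and 158 ± 5.29 CPM (-0.12). The smallest difference among the H2a genes was that of Hist2h2ab, at -0.07 (95% limits -0.26 to 0.12). The median coefficient of variation of H2a genes was 12.9% among cKO libraries, the widest of the 5 types, and 7.04% among controls.

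Within H2b, 3 of 16 genes were called lower, where 3.46% of all genes were, and the median was -0.17. The row Hist2h2bb had the most H2b counts, 979 ± 69.1 CPM in the cKO and 1022 ± 73.7 in the controls, and the smallest H2b difference, at -0.06 (95% limits -0.21 to 0.08). In the 11 head-to-head pairs the H2b gene had the lower log2 value in 6 and the H2a gene in the others, so neither side of the shared promoters was regularly the lower. The pair Hist1h2an and Hist1h2bp differed most within a promoter, at -0.18 and -0.40.

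Within H3, 1 of 11 tested genes was called lower, where 3.46% of all genes were, and the median was -0.19. Hist1h3e was at 379 ± 43.1 CPM in the cKO and 439 ± 37.8 in the controls (-0.21), Hist1h3f at 321 ± 34.8 and 362 ± 24.2 (-0.18), and Hist1h3b at 306 ± 25.0 and 339 ± 22.5 (-0.15). None of these 3 passed the test. Hist1h3c had the largest H3 difference, -0.29, but its wide spread (SE 0.13) gave an edgeR adjusted p of 0.191. The only value above 0 among all 59 tested genes was that of Hist2h3c1, 0.08 (95% limits -0.54 to 0.69), a gene at 1.58 ± 0.255 CPM in the cKO and 1.51 ± 0.695 in the controls.

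Within H4, most of whose genes encode the same protein, edgeR called 0 of 13. At an unadjusted edgeR p under 0.05, 6 were lower, against 10.2% of all genes. DESeq2 called 1 lower, where it called 3.67% of all genes. The median log2 difference was -0.18. Hist1h4d was at 734 ± 47.0 CPM in the cKO and 779 ± 51.7 in the controls (-0.09), Hist1h4h at 501 ± 46.3 and 559 ± 25.4 (-0.16), and Hist1h4c at 318 ± 32.9 and 348 ± 13.3 (-0.13). Hist1h4i was closest to the threshold, at 24.45, 29.94, 29.45 and 26.20 CPM against 30.33, 29.99, 35.42 and 34.19 (-0.24, SE 0.08, edgeR adjusted p = 0.0583). Its highest cKO and lowest control libraries nearly touched. Hist1h4b had the smallest H4 difference, -0.07 (95% limits -0.24 to 0.10).

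The median log2 difference was much alike whatever the annotated mRNA end. It was -0.16 over the 19 genes whose model ends near the stem-loop, -0.18 over the 21 tested genes whose model runs on past it, and -0.15 over the 19 tested genes with no stem-loop in the model. It was -0.15 over the tested genes with more than 50% shared windows and -0.18 over the other 35. By cluster, the summed level was 9.25% lower over the Hist1 genes, 7.02% over Hist2 and 10.7% over Hist3, and Hist4h4 was 11.6% lower. The Hist3 sums did not overlap, at 633 to 741 CPM in the cKO and 762 to 799 in the controls.

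The spread between libraries was wider for histone genes than for all genes above the same depth. Among genes with a mean of at least 1000 counts, the median coefficient of variation was 6.66% in controls and 10.2% in the cKO over 42 histone genes. Over all 3747 such genes it was 4.04% and 5.41%. The histone genes moved together from library to library, which a coefficient for each gene does not show.

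That shared movement divided the cKO group. The median log2 deviation from the control mean, over 57 histone genes averaging 1 CPM or more, was -0.30 in cKO replicate 1 and -0.26 in cKO replicate 4. It was -0.05 and -0.04 in cKO replicates 2 and 3, within the range of the controls (-0.09, 0.00, 0.08 and 0.03). Of the 59 tested genes, 30 had their lowest value in cKO replicate 1 and 23 in cKO replicate 4, while 31 had their highest in control replicate 3. The lower level of the group was thus carried mainly by 2 of its 4 libraries.

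**Figure D4:**
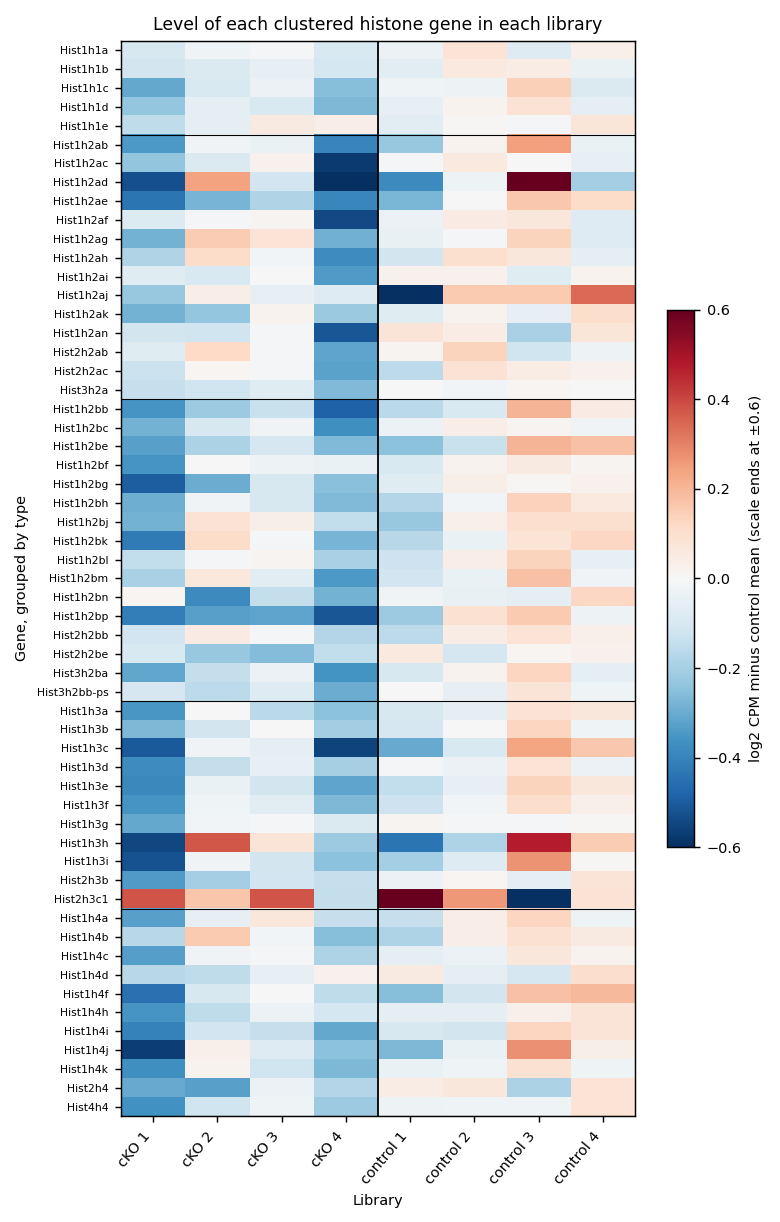
Log2 CPM of each histone gene averaging 1 CPM or more (rows, grouped by type) minus its control mean, in each library (columns); blue is lower and red higher, and the scale ends at ±0.6. The columns of cKO replicates 1 and 4 are blue in most rows, with medians of -0.30 and -0.26, and those of replicates 2 and 3 are near the controls.

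The division was not alike in each type. In cKO replicate 1 the median deviation was -0.36 for H3 and H4, -0.29 for H2b, -0.20 for H2a and -0.15 for H1. In cKO replicate 4 it was -0.36 for H2a, -0.27 for H2b, -0.22 for H3, -0.18 for H4 and -0.11 for H1. H1 thus deviated least in both libraries, whereas H3 and H4 were furthest below in replicate 1 and H2a in replicate 4.

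The cKO replicates 1 and 4 are also the male cKO libraries, and all controls were male. In the cKO group, embryo sex and these libraries cannot be told apart. In a model with genotype and sex, edgeR called 0 of 59 histone genes for female against male, with 33 higher and 0 lower at an unadjusted p under 0.05. Of all 15014 genes, 1 was called higher (0.00666%) and 4 lower (0.0266%), and 785 had an unadjusted p under 0.05 in either direction. The female-minus-male coefficient was above 0 for 55 of the 59, with a median of 0.22 against 0.00 over all genes. Among the male libraries the summed level of the histone genes was lower by 0.22 on the log2 scale, in place of 0.14. The share of mitochondrial rRNA was 11.1% and 9.84% in cKO replicates 1 and 4, and 14.0% and 10.9% in replicates 2 and 3. In the controls this share was 13.7%, 8.72%, 13.5% and 8.19%, a range that holds the values of cKO replicates 1 and 4. Its part in the result was not tested.

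RNAs that also lack a poly(A) tail were read as a second list. A total of 13 were tested, among them the 7SK RNA Rn7sk, the RNase P RNA Rpph1 and the RNase MRP RNA Rmrp. Of these, 0 were called by edgeR and 0 by DESeq2. Over all genes edgeR called 3.46% lower and 8.35% higher, and DESeq2 3.67% and 7.57%. At an unadjusted edgeR p under 0.05, 1 was lower and 2 were higher, where 10.2% of all genes were lower. Over the 19 alternatives, 0 to 2 of the list were called lower and 0 to 2 higher. Their median deviation was 0.12 in cKO replicate 1, 0.00 in replicate 2, -0.04 in replicate 3 and -0.18 in replicate 4, and the controls ran from -0.16 to 0.14. By this median cKO replicate 1 lay inside the range of the controls and cKO replicate 4 just below it. Both were low for histone mRNA. The median hides a split of single genes between the controls. Rprl3 was at 1.65 and 2.17 CPM in control replicates 1 and 3, against 983 and 1049 in control replicates 2 and 4. In the cKO libraries Rprl3 was at 946, 761, 1164 and 1070 CPM. Rprl2, a gene with few reads, was at 0.15 and 0.14 CPM in control replicates 1 and 3, against 2.42 and 1.89. What divided them was not tested. The bearing of these RNAs on the histone levels was not tested. Rn7sk stood at 21030 ± 871 CPM in the cKO and 21140 ± 1244 in the controls. The sources used here do not say how the libraries were selected for mRNA.

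Genes that act in the synthesis and 3′ processing of histone mRNA mostly did not pass the test. Of 18, 0 were called higher and 1 lower, where 8.35% and 3.46% of all genes were, with a median log2 difference of -0.05. The gene called was Sympk, which encodes the scaffold protein symplekin of the cleavage complex, at 137 ± 12.9 CPM in the cKO and 157 ± 4.71 in the controls (log2 -0.20, edgeR adjusted p = 0.0390). That call was lost without cKO replicate 2 or 3 and without control replicate 2, 3 or 4, which left 0 of 18. Slbp, picked here for its role and not by the rule for named genes, was at 83.8 ± 2.64 and 90.7 ± 2.67 CPM without overlap (-0.11, edgeR adjusted p = 0.140).

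Histone chaperones carry new histones to DNA. Of 20, 0 were called higher and 2 lower, where 8.35% and 3.46% of all genes were, with a median of -0.08. Chaf1a, the large subunit of chromatin assembly factor CAF-1, was at 61.9 ± 4.80 CPM in the cKO and 76.5 ± 2.79 in the controls (log2 -0.30, edgeR adjusted p = 0.00356). Mms22l, which acts with TONSL at stalled replication forks, was at 36.5 ± 2.01 and 43.0 ± 1.83 CPM (-0.24, edgeR adjusted p = 0.0153). Without control replicate 2 the number called lower was 1.

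Histone genes outside the clusters, which encode replacement and variant histones, gave 0 called higher and 2 lower of 11 tested, from a list of 15. Of all genes, 8.35% were called higher and 3.46% lower. H1fx, a linker histone variant, was at 24.4 ± 4.44 CPM in the cKO and 32.1 ± 1.57 in the controls (log2 -0.39, edgeR adjusted p = 0.0202). H2afz, which encodes H2A.Z, was at 21.8 ± 1.51 and 25.6 ± 1.49 CPM (-0.24, edgeR adjusted p = 0.0370). The number called lower was 0 without cKO replicate 1 or control replicate 4, and 1 without control replicate 2 or 3. At an unadjusted edgeR p under 0.05, 4 genes of the list were lower, against 10.2% of all genes, and 2 were higher. The 2 higher were H3f3b, with the highest level of the list, and H3f3a. H3f3b was at 846 ± 44.9 CPM in the cKO and 774 ± 14.0 in the controls (log2 0.13, edgeR adjusted p = 0.164). H3f3a was at 87.7 ± 6.94 and 78.5 ± 7.88 CPM (0.16, edgeR adjusted p = 0.193). The log2 fold change was below 0 for 9 of the 11 tested genes. The list summed to 2614 to 2706 CPM in the cKO and 2552 to 2713 in the controls. The groups overlapped, as did the sums over all 61 clustered genes.

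Of 23 DNA replication genes, 8 were called lower, 1 was called higher and 14 were not called, with a median of -0.13. Over all genes the shares were 3.46% lower and 8.35% higher. Uhrf1, which keeps DNA methylation at replication forks, was at 193 ± 18.9 CPM in the cKO and 243 ± 16.8 in the controls (log2 -0.33, edgeR adjusted p = 0.00433). The licensing factor Cdt1 (-0.30, edgeR adjusted p = 0.00643) and the helicase subunit Mcm3 (-0.18, edgeR adjusted p = 0.0132) were lower too, and Ccne1, which encodes cyclin E, was higher (0.34, edgeR adjusted p = 0.0173). The sums did not overlap, at 3112 to 3197 CPM in the cKO and 3263 to 3515 in the controls. By library the median deviation of the list was -0.12, -0.12, -0.09 and -0.15 in cKO replicates 1 to 4. Without cKO replicate 2, control replicate 2 or control replicate 4 the number called lower was 5, 3 and 2, and in the male libraries alone it was 4. The 4 library values of the clustered histone genes were further apart, at -0.30, -0.05, -0.04 and -0.26.

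**Figure D5:**
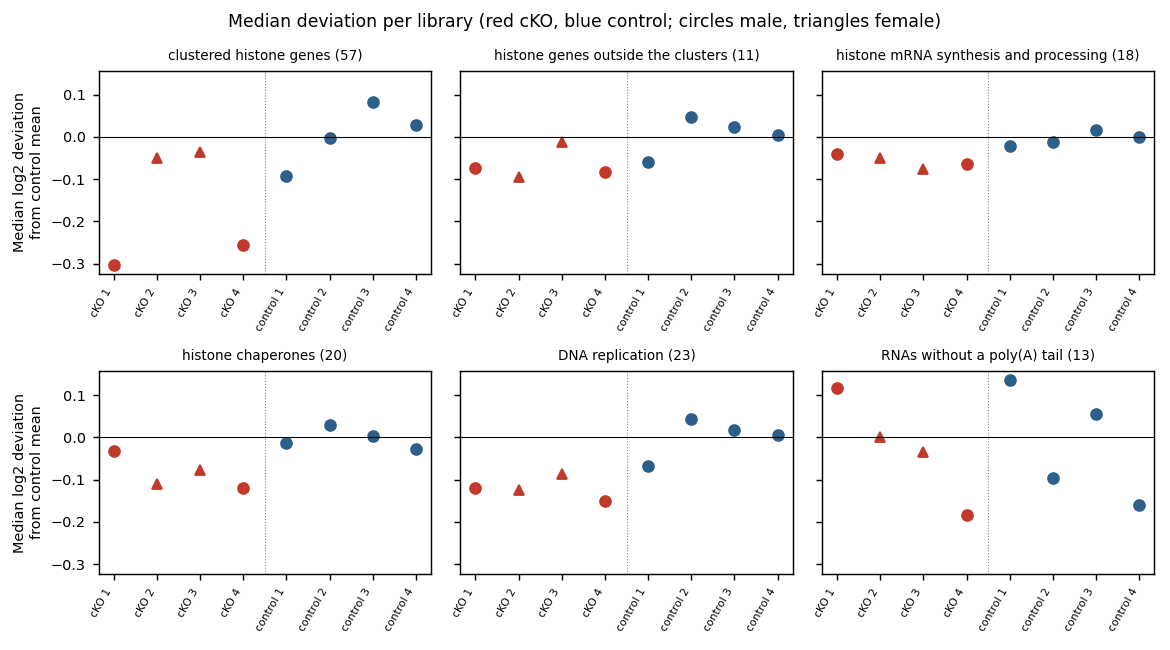
Median log2 deviation from the control mean (y axis) in each library (x axis) for the clustered histone genes and 5 related lists, with the number of genes in brackets; red is cKO, blue control, circles male and triangles female. The histone genes reach -0.30 and -0.26 in cKO replicates 1 and 4, while the DNA replication list lies between -0.09 and -0.15 in all 4 cKO libraries.

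Markers of other cells were read in the same libraries. Of 7 microglial markers 4 were called higher, with sums of 41.1 to 49.4 CPM in the cKO and 30.3 to 36.5 in the controls. Of 10 tested mesenchymal markers 4 were called higher, with sums of 44.98 to 98.05 and 42.4 to 70.1 CPM. Over all genes tested, 8.35% were called higher. Erythroid sums were 92.0 to 879 and 162 to 1298 CPM, and endothelial sums 271 to 308 and 320 to 349. The endothelial sum was mostly Kdr, which was called lower, while Cldn5 was called higher. In cKO replicates 1 and 4 the erythroid sums, 327 and 92.0 CPM, were below those of replicates 2 and 3, at 749 and 879 CPM. The microglial sums, 41.1 and 44.5 CPM, were below 49.4 and 45.3 CPM, by little in replicate 4. Mesenchymal sums, 44.98, 70.38, 94.53 and 98.05 CPM in cKO replicates 1 to 4, were not divided in this way. Nor were pigment epithelium sums, at 20.7, 35.3, 21.8 and 26.2 CPM. Of 5 tested pigment epithelium markers 1, Rlbp1, was called higher. The part of these cells in the result was not tested.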

How the data were processed

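RNA from the peripheral retina of 4 cKO and 4 control samples was sequenced. The submitters' processing notes name the aligner Novoalign (2.08.01), the build mm10 and DESeq2. The sources used here do not give the counter, annotation, strand or selection for mRNA. The authors deposited whole-number counts per gene and library, FPKM scaled by gene model length and counted reads, and a log2 ratio between the groups, per the file headers. A further deposited column of adjusted p holds a score whose scale the authors do not name, and it was left out. No count column was without a sample (0 columns).

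The counts were tested with edgeR 4.0.16 in R 4.3.3 (TMM normalization, filterByExpr with a minimum count of 10, glmQLFit and glmQLFTest, no covariate), with Benjamini-Hochberg adjustment over 15014 genes that hold 99.95% of the counts. The TMM factors lay between 0.9545 and 1.036. Each standard error (SE) was derived from the F statistic. Low-count genes are the least precise. The procedure was tested on simulated data. Alternatives were DESeq2 1.42.0, other scalings, no filter, a replicate block, sex, subsets of libraries and each library left out. Members, lists and tests were chosen with earlier results of these data known. Named were the called members, the 3 most counted of each type and, from 1 CPM, the largest and smallest fold change of each type, and called genes of each list (at most 4, by p). Sex was read from Xist (under 100 counts: male), and lens libraries from crystallins over 10 CPM. Coordinates and stem-loops came from GENCODE M21, matched by identifier for 54 members and by symbol for 7. Of the 70 genes M21 names by the same pattern, 9 are absent from the deposited gene table under that symbol. The share of their 50-base windows found in another histone transcript ran from 0.0% in Hist1h1t to 100% in Hist2h2aa2. Protein sequences were not used here.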

Additional observations from a re-analysis of the deposited data

Results flagged for a closer look

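Dixon's ratio, the gap of the most distant library to its nearest neighbour over the range of its group, was checked in 58 groups of 4 libraries against its 95% critical value. Chance passes about 1 in 20 groups, and 2 passed. The summed H2a level of control replicate 1, 1725 CPM, lay below the other controls at 1805 to 1814 CPM (ratio 0.899). The H2a gene Hist1h2ai stood at 150.5 CPM in control replicate 3 and at 160.8 to 161.4 CPM in the other controls (ratio 0.951).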

How the results depend on the processing

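In each of the alternatives run, 56 to 60 histone genes had a log2 fold change below 0, and 0 were called higher. The number called lower did change, from 5. It was 11 with DESeq2 (3.67% of all genes), 24 with embryo sex as a covariate and 25 in the male libraries alone. It was 13 with the replicate block (3.31% of all genes), 3 under total-count scaling and 16 without the libraries with lens crystallin counts. When each library was left out it ran from 1 to 11. With the controls with more mitochondrial rRNA alone, an alternative chosen after seeing the data, edgeR called 0, with 14 at an unadjusted p under 0.05. The number was 5 with DESeq2's size factors in edgeR (3.58% of all genes), with no filter (3.36%) and without mitochondrial rRNA (3.3%). It was also 5 with the other 2 controls alone, where 1.52% of all genes were called lower. The cause of these changes was not tested. Whether the replicate numbers pair the samples is not known. Same-numbered libraries correlated at 0.234, -0.0867, 0.00546 and 0.17, and only numbers 1 and 4 correlated best with their own. Such weak correlations cannot settle whether samples shared a litter or a batch.

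The median log2 fold change of the histone genes was -0.28 with sex as a covariate and -0.28 in the male libraries alone, and -0.20 to -0.13 with each library left out. In the male libraries alone the summed level differed by -0.22 over all members, -0.15 for H1, -0.26 for H2a and -0.30 for H3. The related lists gave 13 calls lower in all. They gave 7 with the controls with less mitochondrial rRNA alone, 3 with those with more, 3 with sex as a covariate, 8 in the male libraries alone, 4 under total-count scaling and 4 to 14 with each library left out. The 1 call higher, Ccne1, became 0 with the controls with less mitochondrial rRNA alone, with sex as a covariate, in the male libraries alone and without the lens libraries, 0 or 1 with each library left out, and 3 calls higher were made with the controls with more mitochondrial rRNA alone. The number of libraries, 4 per group, and the few counts of Hist1h2al, Hist2h3c2, Hist1h4m and Hist1h4n limit what could be detected.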
